A study of Mus musculus with 8 samples.

Results

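The baseline described here is the transcriptome of subcutaneous fat in the 4 floxed control libraries of a series of 8. They were chosen by their titles, which call them WT, and by the genotype label Pkd1(flox/flox). The 4 mice were of the strain C57BL/6J (back-crossed 4x) and carried 2 floxed alleles of the gene that the study calls Pkd1, protein kinase D1. The sources used here give no Cre driver, sex, age, diet or time of sampling for these mice. The other 4 libraries of the series carry the label of the deletion and are not analysed here. Each control library has its own mouse label, and the libraries are called WT1 to WT4 by the replicate number in the title, a number that gives no order.

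Subcutaneous white fat stores triglyceride in adipocytes, which take up fatty acids freed by lipoprotein lipase, make fatty acids from glucose, desaturate them, and release them again by lipolysis. Its cells also secrete hormones such as adiponectin and leptin. Whole fat further holds endothelial cells, fibroblast-like progenitors, macrophages, nerve and blood, so each value below is a sum over cell types. In such tissue RNA, more cells of a type and more RNA per cell cannot be told apart.

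Poly(A) RNA was read at 2735078, 2617755, 2816661 and 2766875 counted reads in WT1 to WT4, over 18022 genes. Values are counts-per-million (CPM) scaled by the trimmed mean of M values (TMM), a factor that makes most genes equal between libraries, and a value after ± is an SD over the 4 libraries (n = 4) unless named otherwise. No pair of control libraries looked like a single library deposited under both names, since the chi-square per gene between 2 libraries lay between 4.45 and 9.01, where counting noise alone gives about 1. Both of the highest values involved WT2, against WT1 and against WT3. Nothing beyond the mouse labels says how tissue was sampled, so the spread between libraries mixes animal, dissection and library preparation.

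The tissue label was checked against 12 adipocyte-defining genes, and all 12 were measured, each at a mean above 100 CPM. Scd1, stearoyl-CoA desaturase of fat and skin, stood at 75339.5, 98861, 88559 and 102361 CPM. Fabp4, the fatty acid binding protein of adipocytes, stood at 6469, 6572, 6151 and 5034 CPM. Lpl, the lipoprotein lipase, stood at 7781, 3950.3, 7253 and 5311 CPM. Adiponectin, encoded by Adipoq, stood at 1466, 1715, 1356 and 1312 CPM. The order of the libraries differed from gene to gene: WT1 was the lowest of 4 for Scd1 and the highest for Lpl, and WT2 was the lowest for Lpl and the highest for Fabp4 and Adipoq.

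A single gene took a large part of the sequencing. Scd1 (ENSMUSG00000037071; chromosome 19, 44394455 to 44407879, minus strand, GRCm38) took 9.12% ± 1.12 of the reads, and the 10 genes with most reads together took 15.4% ± 1.13. The 25 genes with most reads took 20.2% ± 1.04, the first 100 took 31.0% ± 1.11 and the first 1000 took 55.1% ± 0.950. By contrast, 6023 genes had a mean from 1 to 10 CPM, 9776 from 10 to 100, 1521 from 100 to 1000, and 91 from 1000 to 10000, while Scd1 was the only gene with a mean above 10000 CPM. Reads of one gene are a ranking of reads and not of molecules, because a longer gene gives more reads. Filip1l and 2610528E23Rik, both among the first 10, share nearly all their reads, as given below. The shares of the first 10, 25, 100 and 1000 genes therefore count some reads more than once.

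Behind Scd1, the order of reads ran across several functions. The mitochondrial cytochrome oxidase subunit mt-Co1 had 9247 ± 1019 CPM. Gelsolin (Gsn), an actin-severing protein that is also secreted, had 8879 ± 1587 CPM. Carbonic anhydrase 3 (Car3), a cytosolic enzyme of fat and muscle, had 7052 ± 418 CPM, with all 4 libraries between 6686 and 7640 CPM. Apolipoprotein E (Apoe), a lipid carrier that macrophages and adipocytes secrete, had 4864 ± 975 CPM, and Ahnak, a very large scaffold protein of the cell cortex, had 4768 ± 372 CPM. Further down followed Plin4, a coat protein of lipid droplets, with 4035 ± 413 CPM, Fasn, fatty acid synthase, with 3598 ± 1284 CPM, Sparc, a collagen-binding matrix protein, with 2834 ± 505 CPM, and Cd36, a fatty acid translocase, with 2354 ± 325 CPM. The set of 25 was stable to the library left out: 23 to 24 of the 25 remained in it.

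**Figure D1:**
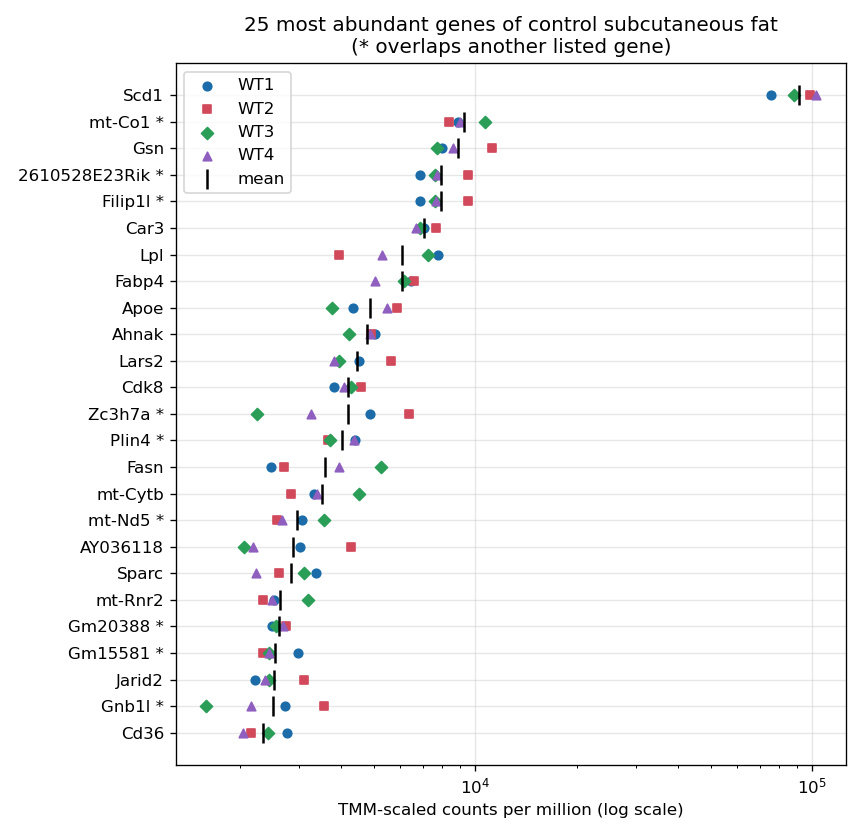
TMM-scaled CPM (log axis) of the 25 genes with the highest mean, in each of the 4 control libraries, with the mean as a bar. Scd1 stands alone, at 75339.5 or more, the 4 points of Car3 lie between 6686 and 7640, and Zc3h7a spreads from 2261 in WT3 to 6353 in WT2; an asterisk marks a gene that overlaps another listed gene.

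Some names in this ranking may not stand for transcripts of their own. Of the first 25 genes, 9 overlap another listed gene in GENCODE M21, and 1 (AY036118) is not in that annotation. An overlap alone need not matter much: mt-Co1 had 9247 CPM against 112 for mt-Ts1, and Plin4 had 4035 against 50.7 for Hdgfrp2. Filip1l, with 7922 ± 1135 CPM, and 2610528E23Rik, which M21 calls Cmss1, with 7932 ± 1135 CPM, share nearly all their reads: WT1 held 19065 and 19087, and WT2 held 24190 and 24214. Gm15581 had 2557 ± 280.3 CPM and overlaps Cav1, the caveolin of adipocytes and endothelium, which had 2104 ± 181 CPM. The counts behave as if they covered the whole gene with its introns on either strand: among 334 pairs in which a gene of at least 100 reads over the 4 libraries lies wholly in an intron of another listed gene, the outer gene had at least as many reads in 316 (94.6%). On opposite strands this held for 197 of 206 pairs (95.6%). In all, 5806 genes overlap another, and they hold between 32.3% and 33.1% of the reads of a control library, so a read can be counted more than once and a level of an overlapping gene is uncertain.

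A family of very short, near-identical genes adds a set of values that moved together. Annotated as miRNA genes in GENCODE M21 (GRCm38), they are shown because their sequences differ by so little. A read lying wholly within bases that they share cannot be assigned to 1 of them by its sequence. Capitals mark bases that differ from the first sequence.
Gm23935: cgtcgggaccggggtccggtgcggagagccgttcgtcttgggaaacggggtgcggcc
Gm24187: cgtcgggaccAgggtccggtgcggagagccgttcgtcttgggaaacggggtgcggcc
Gm25911: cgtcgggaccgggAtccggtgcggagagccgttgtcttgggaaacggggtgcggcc
Gm23935 lies at chr16:11144125-11144181 (plus strand), Gm24187 at chr13:9834469-9834525 (minus strand) and Gm25911 at chr1:167340369-167340424 (minus strand). Gm25911 differs at 1 base and lacks 1 base of the first sequence, and Gm24187 differs at 1 base. A further pair, Gm24270 on chromosome 9 and Gm24245 on chromosome 4, are identical to Gm23935 over all 57 bases. Their means were nevertheless unequal, at 500 and 55.8 CPM against 1554 CPM for Gm23935. How reads were divided among the copies was not tested.

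Read counts of this family were unequal between libraries in one and the same order. Gm23935 had 1925, 2236, 814 and 1241 CPM in WT1 to WT4, Gm24187 had 506, 616, 152 and 257 CPM, and Gm25911 had 349.9, 415, 82.1 and 151 CPM. All 5 copies were highest in WT2 and lowest in WT3. Gm23935 lies inside Zc3h7a, a zinc finger gene, which stood at 4864, 6353, 2261 and 3256 CPM, and Gm24270 lies inside C230081A13Rik (Peak1 in M21), which stood at 2648, 3427, 1325 and 1691 CPM. Gnb1l, with 2736, 3569, 1593 and 2167 CPM, and AY036118, with 3018, 4279, 2056 and 2195 CPM, had the same highest and lowest library. The part of these copies in the spread of the genes that hold them was not tested.

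Per length of exon, in reads-per-kilobase-per-million (RPKM) over merged exons, the order changed. Among genes with at least 300 bases of exon, Scd1 led with 18659 ± 2481 RPKM and mt-Co1 followed with 5985 ± 660 RPKM. Apart from 2610528E23Rik, named above, the next genes were mt-Cytb, cytochrome b, at 3081 ± 622, Gsn at 2813 ± 503, Car3 at 2461 ± 146 and mt-Atp6, an ATP synthase subunit, at 2416 ± 458 RPKM. Cfd, the secreted protease adipsin, was at place 31 by reads and at place 8 per length, with 2387 ± 1136 RPKM over 922 bases of exon. Fabp4, at 1349 RPKM, stood above Adipoq, at 1059, Lep, at 673, Cd36, at 656, and Lpl, at 579.7 RPKM. From mt-Atp6 to Apoe (2275 ± 456 RPKM) the means differed by less than 1 SD, so their order is not resolved by 4 mice. Of the 15 highest genes with no length limit, only 9 were left with the limit, because the others were shorter, down to 48 bases. Divided by the whole gene with its introns, over which the counts appear to run, 10 of these 15 remained, so a level per length depends on the length used.

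Lists of genes by function, which share some members, gave the division of reads. Desaturation and lipogenesis took 10.2% ± 1.25 of the reads over 26 genes, of which 89.3% was Scd1 alone, and 1.09% without it. The 36 genes of the mitochondrial genome took 3.33% ± 0.446, matrix genes other than collagens 2.31% ± 0.141, adipokines and other secreted proteins 1.91% ± 0.143, and fatty acid uptake and binding 1.78% ± 0.276. Redox and detoxification genes took 1.41% ± 0.111, and lipid droplet and caveola genes 1.41% ± 0.0654. All lists of function and cell type together, with each gene counted once, held 1205 genes and 33.4% of the reads (31.8% to 34.1% by library), and the 16817 genes on no list held 66.6%.

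**Figure D2:**
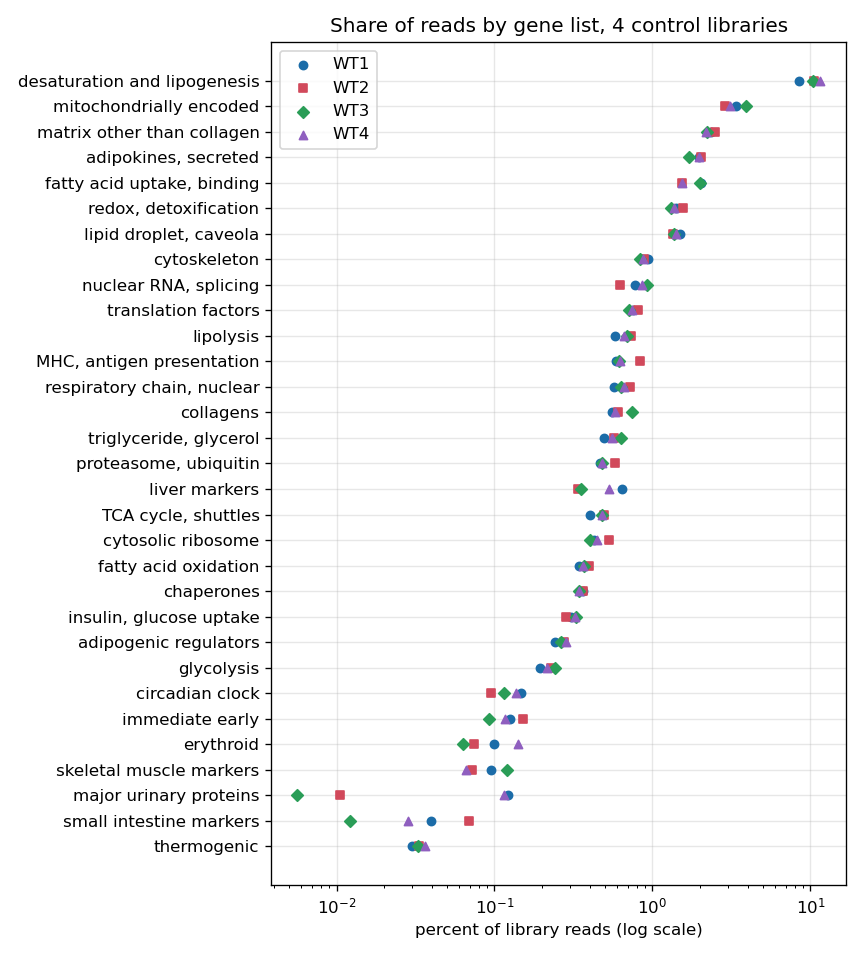
Percent of each control library's reads (log axis) that fell in 31 of the gene lists, 1 symbol per library. Most lists have 4 symbols close together, such as lipid droplet genes (1.350% to 1.496%), whereas liver markers, major urinary proteins and small intestine markers are spread widely.

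Lipogenesis genes did not share one order of libraries. Fasn stood at 2481, 2701, 5263 and 3946 CPM, highest in WT3, and Acss2, which makes acetyl-CoA from acetate, stood at 205, 305, 433 and 349 CPM, also highest in WT3. The elongase Elovl6 stood at 54.8, 47.7, 102 and 60.1 CPM. Scd2, a desaturase of the same family as Scd1, had 1969.7 ± 419 CPM, and Scd3 had 604 ± 92.1 CPM; genes of so similar a family can exchange reads, and their split is uncertain. Srebf1, the transcription factor of lipogenesis, stood at 269.6, 469.8, 395 and 502 CPM, lowest in WT1 as Scd1 and Fasn were.

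Some genes of fatty acid uptake, storage and release were variable and others were not, in counts near the share over all genes. Among 16 uptake genes of at least 20 CPM, 2 were variable, meaning that the highest library had at least 2 times the CPM of the lowest; over all 8378 genes of at least 20 CPM, 527 were variable (6.29%). Lpl, at a ratio of 1.97, lay just under that limit, while Dbi, the acyl-CoA binding protein, was steady at 515, 599, 566 and 564 CPM. None of 15 lipid droplet and caveola genes was variable: Plin1, the coat protein that gates lipolysis, stood at 1335, 2118, 1558 and 1725 CPM, Ptrf, the caveola coat cavin 1, at 1844, 1878, 1705 and 1637 CPM, and Cidec, which enlarges droplets, at 1591, 1223, 1376 and 1145 CPM. Lipolysis genes took 0.667% ± 0.0669 of the reads, and 2 of 14 were variable, as were 2 of 14 triglyceride and glycerol genes. In lists this short, none of these counts lies far from the share over all genes. Hormone-sensitive lipase (Lipe) had 1457 ± 121 CPM, monoglyceride lipase (Mgll) 1329.6 ± 141 CPM, and adipose triglyceride lipase (Pnpla2) 1217 ± 243 CPM. Of triglyceride and glycerol genes, Dgat2, the last acyltransferase of triglyceride synthesis, had 1567 ± 237 CPM. Pck1, which supplies glycerol 3-phosphate, was variable at 958, 2135, 1281 and 1354 CPM, more than 2 times higher in WT2 than in WT1.

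Of 22 genes of secreted products, 4 were variable, against 6.29% over all genes. Leptin (Lep), the satiety hormone whose level tracks fat cell size, stood at 3258, 1538, 2439 and 1789 CPM, highest in WT1 and lowest in WT2. Cfd stood at 1329.5, 3363, 1302 and 2810.1 CPM, so WT2 and WT4 lay above WT1 and WT3 by more than 2 times. On the same list, Npr3, the clearance receptor of natriuretic peptides, had 1613 ± 365 CPM. The imprinted gene Nnat, named after its values were seen, was variable at 835, 2027, 739 and 1276 CPM. Blcap, in whose intron Nnat lies, had 955, 2207, 870.1 and 1418 CPM, and the reads of this pair cannot be told apart. Transcription factors of adipocyte identity took 0.266% ± 0.0191 of the reads: Cebpa stood at 635, 1171, 699.6 and 827 CPM, Pparg at 253, 221, 304 and 336 CPM and their partner Rxra at 213, 195, 197 and 214 CPM, the last being steady.

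Of the genes of energy metabolism, those of the mitochondrial genome took the most reads. The 87 nuclear genes of the respiratory chain took 0.645% ± 0.0628 of the reads, TCA cycle and shuttle genes 0.464% ± 0.0407, fatty acid oxidation 0.368% ± 0.0227, insulin signalling and glucose uptake 0.310% ± 0.0207 and glycolysis 0.221% ± 0.0204. Atp5b, the catalytic subunit of ATP synthase, had 989.7 ± 134 CPM, and Pcx, pyruvate carboxylase, had 624 ± 118 CPM. The insulin-responsive glucose transporter Slc2a4 stood at 104, 164, 146 and 162 CPM, lowest in WT1. Mitochondrially encoded genes were highest in WT3 (3.93% of reads) and lowest in WT2 (2.9%), while nuclear respiratory genes were highest in WT2 (0.722%) and lowest in WT1 (0.572%). Neither list had a variable gene, of 19 and 67 at 20 CPM or more, against 6.29% over all genes. For the 19 mitochondrially encoded genes, a count of 0 is near that background. The 17 thermogenic genes measured here took 0.0331% of the reads, led by Prdm16, a transcriptional regulator of brown and beige fat, at 56.9, 90.6, 68.4 and 83.1 CPM.

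Structural genes and markers of cells other than adipocytes were read as well. Collagens took 0.619% ± 0.0841, led by Col3a1 at 1171 ± 280.1 CPM and the basement membrane pair Col4a1 and Col4a2 at 989.8 ± 119.7 CPM and 744 ± 114 CPM; Col1a1 was variable at 466, 315, 715 and 539 CPM. Endothelial genes took 0.416% ± 0.0197, with the junction protein Cdh5 steady at 264, 287, 261 and 271 CPM; Cav1, which adipocytes also express, made up 50.7% of that share. Macrophage genes without Lpl took 0.396% of reads, with Lyz2, lysozyme, at 355, 423, 346 and 273 CPM. Lymphoid genes took 0.0186% and proliferation genes 0.0171%, with Mki67, a marker of cycling cells, at 16.6, 9.46, 14.7 and 10.4 CPM. Ribosomal protein genes took only 0.452% ± 0.0577 over 83 genes, led by Rpl8 with 214 ± 38.7 CPM; such genes have many processed copies, and the sources used here do not say how reads matching several places were counted.

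Spread between control mice was modest for most genes. The common biological coefficient of variation (BCV), the SD between mice relative to the mean after counting noise is removed, was 16.1% in edgeR, and the median gene of at least 20 CPM had a coefficient of variation of 13.8%, or 10.5% once its counting part was subtracted. Variable genes made up 7.50% of genes from 20 to 50 CPM, 5.28% from 50 to 100, 3.69% from 100 to 500 and 10.8% above 500 CPM. Counting alone gave a median of 10.8% in the lowest of these ranges and 1.86% in the top one, so a ratio near 2 at 20 CPM is less certain than at 500. Of the 19 variable genes above 500 CPM, 8 overlap another listed gene and 1 is not in the annotation. The limits cut through a continuum: H2-T10 (ratio 2.0005), Emd and Zcchc11 lay just inside the variable set, and Top1 (1.9988), Ntn1 and Eif2c3 just outside.

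**Figure D3:**
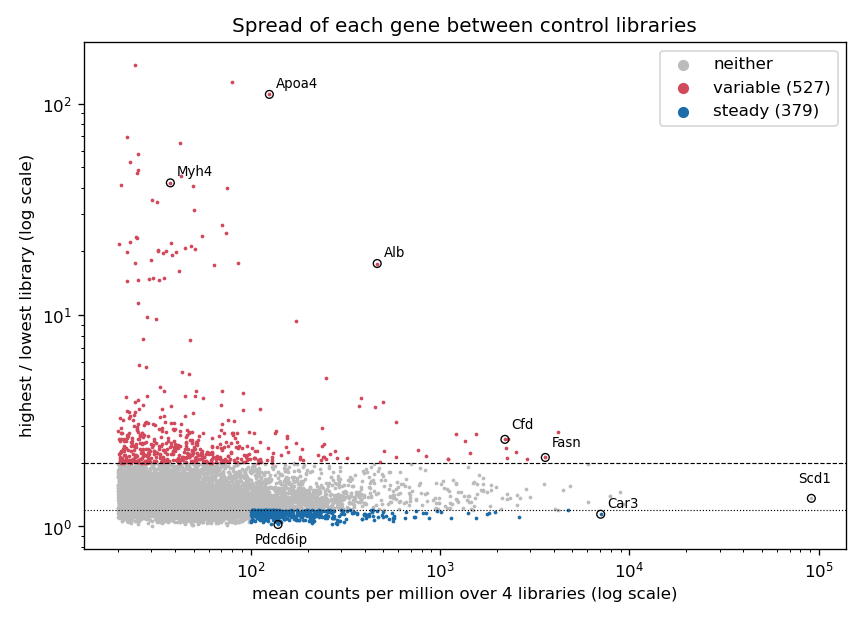
Ratio of the highest to the lowest control library (log axis) against mean CPM (log axis) for the 8378 genes of at least 20 CPM. The dashed line is the limit of 2 for variable genes (red, 527) and the dotted line that of 1.2 for steady genes (blue, 379, from 100 CPM); Apoa4, Myh4 and Alb stand far above the cloud and Scd1, at the right, does not.

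Variable genes were not spread evenly over the libraries. WT2 was the lowest library for 272 of the 527 and the highest for 140, WT1 was the highest for 197, and WT4 was at an extreme least often, highest for 48 and lowest for 37. The commonest arrangement was WT1 highest with WT2 lowest, in 149 genes, followed by WT3 highest with WT2 lowest, in 114. Leaving out WT2 left 191 variable genes, fewer than without any other library (318 without WT1, 381 without WT3 and 489 without WT4).

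Most liver genes were variable. Of 23 liver marker genes of at least 20 CPM, 20 were variable, against 6.29% over all genes. Of these 20, 14 were highest in WT1 and 6 in WT4. Among all 527 variable genes, WT1 was highest for 197 and WT4 for 48. In 19 of the 20, both WT1 and WT4 lay above both WT2 and WT3. How many of the 527 had that arrangement was not counted. Albumin (Alb), the main plasma protein made by hepatocytes, stood at 972, 80.0, 55.4 and 757 CPM. Transthyretin (Ttr), the thyroxine carrier, stood at 84.3, 5.91, 5.26 and 109 CPM, Cps1, the first enzyme of the urea cycle, at 60.5, 5.91, 1.05 and 34.2 CPM, and Apoa2, an apolipoprotein of high-density lipoprotein, at 82.2, 6.31, 4.21 and 87.0 CPM. WT1 and WT4 were thus more than 5 times WT2 and WT3 for each of these 4 genes. The groups of 2 were formed from these same values, so their separation is no separate result. Trf, transferrin, and Hp, haptoglobin, which fat also expresses, were not variable: Trf stood at 2134, 1435, 1711 and 1441 CPM and Hp at 1271, 1413, 1077 and 1242 CPM. The whole liver list took 0.645%, 0.340%, 0.354% and 0.530% of reads in WT1 to WT4. Major urinary proteins, pheromone carriers secreted by the liver, were looked at after their values were seen: 17 of 17 at 20 CPM or more were variable, all with WT1 and WT4 above WT2 and WT3, and their share was 0.122%, 0.0106%, 0.00565% and 0.115%. Members of that family are close copies, so the division of reads among them is uncertain and they are not separate observations. Because the family was chosen by its values, its count cannot be set against the 6.29% over all genes. Where the liver reads came from was not tested.

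Markers of intestine, skeletal muscle and blood also differed between libraries. Apolipoprotein A4 (Apoa4), which the intestine and liver secrete, stood at 37.8, 427, 3.86 and 33.8 CPM, the widest spread over the 4 libraries by biological variation, and Gm10680, which overlaps it, followed it. Sprr2a2 and Sprr2a3, epithelial barrier proteins singled out after their values were seen, stood at 7.57, 113, 8.07 and 11.1 CPM and at 11.5, 78.8, 8.07 and 15.1 CPM, both more than 5 times higher in WT2 than in any other library. Of the 23 intestinal marker genes asked for, 7 were in the table, and Fabp1, shared with liver, stood at 54.8, 74.5, 3.51 and 62.2 CPM. Skeletal muscle had 5 variable genes of 9, against 6.29% over all genes. Of these 5, 4 were highest in WT3 and 4 lowest in WT4. Among all 527 variable genes, WT3 was highest for 142 and WT4 lowest for 37. Myh4, the fast glycolytic myosin, stood at 34.6, 7.49, 106 and 2.52 CPM, and Ckm, muscle creatine kinase, at 31.0, 20.5, 44.2 and 2.52 CPM. Acta1, skeletal actin, stood at 73.9, 44.1, 62.8 and 9.71 CPM. Red cell genes had 4 variable members of 5 at 20 CPM or more, against 6.29% over all genes. Hbb-b1, a beta-globin, stood at 299, 214, 186 and 424 CPM. All 4 globin genes had WT4 highest and WT3 lowest, as had 25 of all 527 variable genes. They also had WT1 and WT4 above WT2 and WT3, as in most liver genes. The part of other tissue in the spread of the fat genes was not tested.

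Variable clock genes shared one arrangement of the libraries. Among 13 circadian genes of at least 20 CPM, 8 were variable, against 6.29% over all genes. All 8 were lowest in WT2, which was the lowest library for 272 of all 527 variable genes. All 8 also had WT1 and WT4 above WT2 and WT3, an arrangement that was not counted over the 527. Tef, a bZIP output factor of the clock, stood at 253, 119, 140.3 and 213 CPM, and Nr1d2, a nuclear receptor that represses clock genes, at 128, 46.1, 78.2 and 86.3 CPM. Members with fewer reads, named after their values were seen, ran alike: Dbp stood at 112, 39.0, 49.8 and 78.0 CPM, Per2 at 50.5, 12.2, 18.6 and 32.7 CPM and Per3 at 107, 41.0, 74.7 and 108 CPM. Clock was not variable, at 96.6, 83.9, 115 and 88.1 CPM, nor was Nr1d1, which ran in another order at 185, 273, 199 and 271 CPM. The labels do not give the hour at which each mouse was sampled. WT1 and WT4 are also the libraries with high liver genes, and these can be seen side by side in the plot of variable genes by list.

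Immediate early genes, which cells switch on within minutes of a stimulus, had 8 variable members of 14, against 6.29% over all genes. All 8 were lowest in WT3 and 7 were highest in WT2. Of all 527 variable genes, WT3 was lowest for 129 and WT2 highest for 140. Jund stood at 127, 229, 96.8 and 162 CPM, and, named after their values were seen, Egr1 stood at 34.6, 75.7, 20.3 and 21.9 CPM and Zfp36, which destabilises cytokine mRNA, at 39.3, 75.7, 26.3 and 43.9 CPM. Cyr61, a matricellular growth regulator, was instead highest in WT1, at 98.4, 48.1, 22.5 and 37.4 CPM. Genes of antigen presentation had 7 variable members of 25, against 6.29% over all genes. Every one was highest in WT2 and lowest in WT1, as were 56 of all 527 variable genes. H2-Q6, a class I gene, stood at 94.1, 210.5, 98.6 and 123 CPM and Tap1, the peptide transporter, at 28.5, 68.2, 41.0 and 44.6 CPM; H2-D1, the class I gene with most reads, followed with 1317, 2082, 1423 and 1424 CPM, a ratio below 2. Class I genes resemble one another closely and their split is uncertain.

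**Figure D4:**
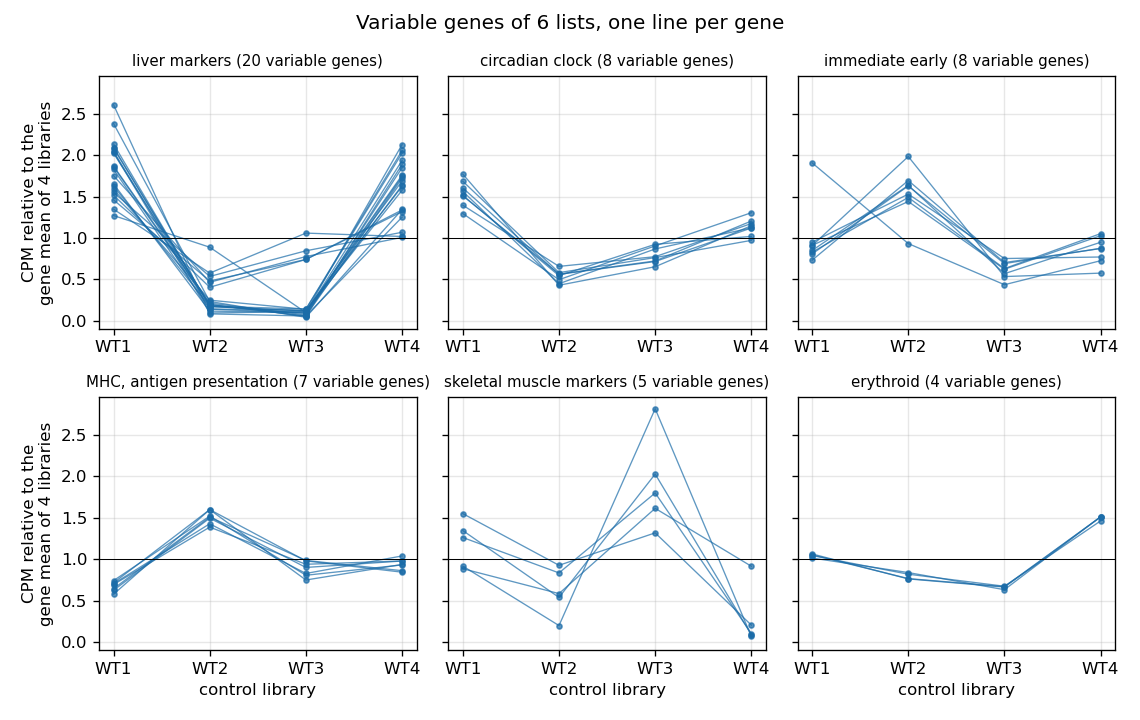
CPM of each variable gene of 6 lists in the 4 control libraries, relative to that gene's mean over the libraries, with 1 line per gene; a line joins the same gene and is no order in time. Liver markers are high in WT1 and WT4, clock genes are lowest in WT2, 7 of 8 immediate early and 7 of 7 antigen presentation genes peak in WT2, 4 of 5 muscle genes peak in WT3 and 4 of 4 globin genes peak in WT4. Of all 527 variable genes, WT2 was lowest for 272 and highest for 140, WT3 highest for 142 and WT4 highest for 48.

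Of 35 nuclear RNA and splicing genes, 3 were variable, 2 of them lowest in WT2. Both counts are near the background: 6.29% of all genes were variable, and WT2 was lowest for 272 of those 527. The list's share of reads was lowest in WT2 (0.627%) and highest in WT3 (0.924%). Malat1, a long RNA retained in nuclear speckles, was variable at 2312, 1270.3, 2991 and 2377 CPM, lowest in WT2, and Neat1, the scaffold of paraspeckles, stood at 1197, 1146, 1846 and 1856 CPM. In WT2, where Malat1 was lowest, the ribosomal protein list was highest (0.534% of reads against 0.402% to 0.445% in the others) and so was Eef2, a translation elongation factor, at 882, 1382, 841 and 1038 CPM. Txnip, a glucose-responsive regulator of glucose uptake, stood at 999, 1722, 875 and 826 CPM, highest in WT2. Gm15441, which overlaps Txnip, stood at 1001, 1726, 875 and 826 CPM, and the reads of this pair cannot be told apart. Cldn5, a tight junction protein of endothelium, was likewise highest in WT2, at 82.9, 234.9, 115 and 109 CPM.

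**Figure D5:**
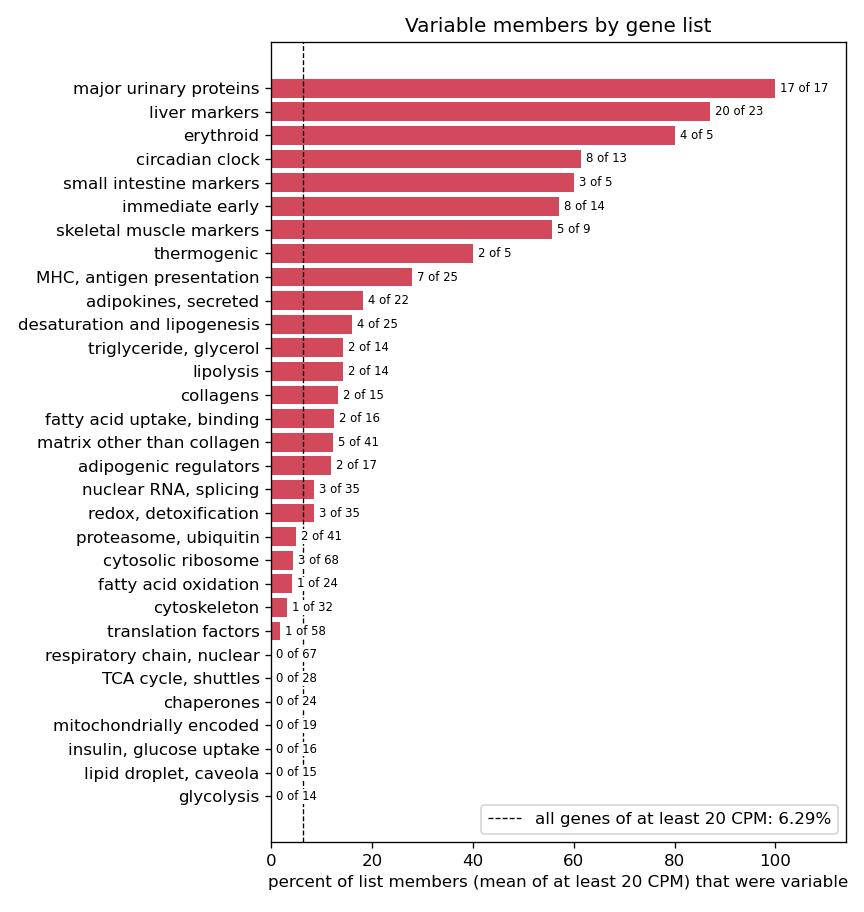
Percent of the members of each list, among those with a mean of at least 20 CPM, whose highest library had at least 2 times the CPM of the lowest, with the counts beside the bars. The dashed line is the share over all genes, 6.29%; liver (20 of 23), clock (8 of 13) and immediate early genes (8 of 14) lie far to the right of it and 7 lists lie at 0.

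Several lists held no variable gene or 1. None was variable among 28 TCA cycle and shuttle genes, 24 chaperones, 16 insulin and glucose uptake genes and 14 glycolytic genes, and 1 was among 58 translation factors. Against 6.29% over all genes, a count of 0 in a list of 14 to 28 genes is near the background, and 0 of 67 nuclear respiratory genes covers more genes. The median biological variation was 7.49% for nuclear RNA and splicing genes, 8.96% for cytoskeletal genes, 9.60% for chaperones, below the 10.5% over all genes. It was 11% for glycolysis, 12.4% for TCA cycle and shuttle genes, 13.2% for nuclear respiratory genes and 14.4% for insulin and glucose uptake, above that value.

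Steady genes were those of at least 100 CPM whose highest library was at most 1.2 times the lowest, and 379 of 1613 genes met this (23.5%). In 92 of the 379 the spread was no larger than counting noise alone would give. Pdcd6ip, an endosomal sorting adaptor also called Alix, had the smallest ratio of highest to lowest, at 138, 141, 140.3 and 139.5 CPM. Tgfbr3, the betaglycan co-receptor of TGF-beta, stood at 267, 272, 270.2 and 265 CPM, Nrp1, a co-receptor of VEGF and semaphorins, at 289, 282, 282 and 289 CPM, and Pabpc1, the cytoplasmic poly(A) binding protein, at 287, 281, 278 and 277 CPM. Pde3b, the phosphodiesterase through which insulin restrains lipolysis, stood at 319, 307, 320.0 and 306 CPM, and Ptpn11, the phosphatase SHP2, at 297, 287, 301 and 304 CPM. The genes named here from Pdcd6ip to Ptpn11 are all among those 92, so their order is not resolved. The peroxisomal transporter Abcd2 was steady at a higher level, 576, 544, 555 and 574 CPM. Among genes above 1000 CPM, 10 of 92 were steady, and of those that overlap no other gene the ones with most reads were Car3, Ahnak and Tns1, a protein of focal adhesions. Gprc5b, Flot2 and Pdia6 lay just inside the limit, and Ppfibp1, Gm13341 and Pcbp2 just beyond it.

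By function, 10 of 25 cytoskeletal genes were steady (40.0%), 5 of 13 chaperones (38.5%), 6 of 17 translation factors (35.3%) and 7 of 22 redox genes (31.8%), against 23.5% over all genes of at least 100 CPM. Lgals1, galectin 1, stood at 705, 715, 783 and 755 CPM, and the endoplasmic reticulum chaperone Hspa5 at 303, 290.1, 297 and 286 CPM. Extracellular superoxide dismutase (Sod3), which guards the matrix against oxidation, stood at 466, 446, 415 and 439 CPM. At the low end, 0 of 17 adipokine genes, 0 of 14 antigen presentation genes and 0 of 10 ribosomal protein genes at 100 CPM or more were steady. With so few genes in a list, several of these counts, such as those of chaperones, redox and ribosomal protein genes, are near the background.

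None of the 10 genes examined that are in common use as a reference for quantitative PCR was called variable or steady. Of these 10, 6 had a mean of at least 100 CPM and 0 of these 6 met the steady limit, against 23.5% over all genes. At 20 CPM or more there were 8, and 0 of them were variable, against 6.29% over all genes. With so few genes, both counts are near the background. Actb, beta-actin, came nearest at 1195, 1181, 977 and 1138 CPM, a ratio of 1.22, and B2m, the light chain of class I molecules, had a ratio of 1.35 at 1332, 1375, 1155 and 1022 CPM. Rplp0, a protein of the ribosomal stalk, stood at 179.8, 210.5, 114 and 177 CPM, the widest of the 10 with a ratio of 1.84. Below 100 CPM, where counting noise is larger, Tbp was close between libraries at 18.0, 20.1, 17.5 and 20.5 CPM. Gapdh had only 23.8, 31.5, 26.7 and 25.5 CPM, a gene with many near-identical copies, and its value is uncertain. Of the protein kinase D genes, Prkd1, which the floxed allele targets, had 29.8 ± 3.08 CPM, Prkd2 34.6 ± 5.13 CPM and Prkd3 54.8 ± 9.55 CPM; Pkd1, the gene of polycystin 1 despite the study's use of that name, had 155 ± 18.2 CPM and overlaps Tsc2.

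Promoters of variable and steady genes were described by 1 motif. The motif TATAA, the core of a TATA box, was searched on the gene's own strand between 45 and 15 bases before the RefSeq start (GRCm38), taking the first start listed for a gene. It was in 130 of 6132 promoters (2.12%) of genes of at least 20 CPM, in 32 of 370 (8.65%) of the variable genes that matched a promoter and in 8 of 275 (2.91%) of the steady genes, where genes of at least 100 CPM had 4.24%. Over all 27025 promoters of the table it was in 4.23%. Without the liver, intestine, muscle and major urinary protein lists the variable genes still had it in 21 of 338 (6.21%). On either strand the shares were 8.92% for variable genes and 2.40% for genes of at least 20 CPM. The promoters below, the 100 bases before the start, show variable genes of fat, liver and muscle that hold the motif and, last, Adipoq, which does not; capitals mark TATAA.
Lep: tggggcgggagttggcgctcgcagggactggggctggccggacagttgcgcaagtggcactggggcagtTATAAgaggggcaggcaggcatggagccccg
Hpx: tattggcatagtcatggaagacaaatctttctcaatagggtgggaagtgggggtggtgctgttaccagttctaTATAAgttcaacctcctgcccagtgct
Myh4: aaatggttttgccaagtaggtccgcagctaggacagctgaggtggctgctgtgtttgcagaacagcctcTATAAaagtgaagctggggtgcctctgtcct
Cyr61: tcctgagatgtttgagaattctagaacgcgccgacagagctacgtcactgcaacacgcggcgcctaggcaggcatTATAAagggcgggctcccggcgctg
Adipoq: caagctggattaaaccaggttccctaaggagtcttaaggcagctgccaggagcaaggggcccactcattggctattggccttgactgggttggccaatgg
They lie at chr6:29060121-29060220 (plus strand), chr7:105600117-105600216 (minus), chr11:67237712-67237811 (plus), chr3:145649986-145650085 (minus) and chr16:23146436-23146535 (plus). Hpx, hemopexin, is the haem carrier of plasma and stood at 63.8, 5.12, 3.51 and 47.1 CPM. Such a match is a run of letters and not a measured site, and no comparison of these shares was tested.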

How the data were processed

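Per the labels' protocols, RNA of subcutaneous fat was treated with DNase on the column, enriched for poly(A) and amplified with 12 PCR cycles. FastQC, Bowtie2, edgeR and the build mm9 stand in the submitters' processing notes. The sources used here do not give the program that counted reads or its annotation. The values the authors deposited are unnormalized counts of reads, 1 row per Ensembl identifier. The members and the gene lists were chosen with earlier results of these data known. The 4 control columns were scaled by TMM in edgeR 4.0.16 (R 4.3.3), fitted with an intercept only; no groups were compared, and Dixon's criterion was applied for a library far from the other 3. DESeq2 1.42.0 was an alternative. Biological variation of a gene is its variance in CPM less the counting variance. Of 18022 genes, 98 have no symbol, and 16983 identifiers matched GENCODE M21 (GRCm38), used for lengths, overlaps and short-gene sequences; promoters are RefSeq's. Coordinates are therefore not those of the authors' build. Named genes were the 25 with most CPM, the 15 highest per length, up to 6 per list by CPM, the 20 most variable, the 20 steadiest, 10 reference genes, the protein kinase D genes and Pkd1, and 3 on each side of each limit; others are marked, and some genes that the rule names are not reported here. The script for variation was tested on simulated data. Alternatives were other scaling, filters, limits and lengths, and each library left out; those by gene overlap, gene span, exon bases and without WT1 and WT4 were chosen after seeing the data.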

Additional observations from a re-analysis of the deposited data

Results flagged for a closer look

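In 6 of 81 sets of values, 1 control library stood far from the other 3, with a gap to its nearest neighbour that passed Dixon's criterion for 4 values; chance alone flags about 5% of such sets. WT2 was that library in 5 of them. Progenitor and fibroblast genes, most of whose reads are Gsn, took 1.294% of the reads in WT2 against 0.985% to 1.032% in the others. Antigen presentation genes took 0.8365% in WT2 against 0.585% to 0.621%. Proteasome and ubiquitin genes took 0.5788% in WT2 against 0.466% to 0.482%. The pair Sprr2a2 and Sprr2a3 took 0.0186% in WT2 against 0.00163% to 0.00264%. That pair was chosen after its values were seen, so its flag was fixed in advance and cannot be set against the 5%. Mesothelial markers, only 3 genes with few reads, took 0.001566% in WT2 against 0.000512% to 0.000675%. In the sixth, Gm15581, which overlaps Cav1, stood at 2972 CPM in WT1 against 2354 to 2453 CPM in the others.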

How the results depend on the processing

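No paired analysis was possible because only the control group is described. The count of variable genes (527) depended on where the limits were set: 1016 at a mean of at least 10 CPM, 196 at 50 CPM, 2494 at a ratio of 1.5 and 109 at a ratio of 3. Leaving out 1 library gave 191 (without WT2) to 489 (without WT4), with 318 without WT1, and leaving out both WT1 and WT4 gave 268. Steady genes (379) numbered 896 at 50 CPM, 134 at 200 CPM, 203 and 707 at the tighter and the looser limit on the ratio, and 502 to 780 with 1 library left out, with 645 without WT1 and 780 without WT2. With fewer libraries the range between highest and lowest can only shrink, so these counts shift by construction. The common BCV (16.1%) was 18.2% without a filter on low counts and 19.7% as DESeq2's fitted dispersion, and 13.4% (without WT2) to 18.3% (without WT4) with 1 library left out. With genes known to overlap another listed gene left out, 16 of the 25 in the ranking by reads remained, of which AY036118 is not in the annotation and its overlap is unknown. Of the 15 per length, 9 had at least 300 exon bases, and 10 remained when the whole gene with introns was the length. Without its member with most reads, the share of a list became 1.094% for lipogenesis, 1.169% for fatty acid uptake, 1.001% for lipid droplets, 1.424% for adipokines, 2.399% for mitochondrially encoded genes, 1.422% for matrix, 0.7075% for redox genes and 0.2988% for liver markers. Among the 20 most variable genes, the ratios of Sprr2a2 (1.472) and Sprr2a3 (1.872) were under 2 without WT2. The share of reads of that pair fell from 0.006203% to 0.00207% without WT2, and that of major urinary proteins from 0.06318% to 0.04373% without WT1.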
